A study of Caenorhabditis elegans with 6 samples.

Results

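The major sperm protein (msp) genes of C. elegans were examined in neuronal polysome immunoprecipitates. Members were the rows of the deposited table with identifiers WBGene00003426 to WBGene00003466, a run of 41 consecutive identifiers. Ensembl release 115 has an entry for 29 of these identifiers and none for the other 12. The table listed 27 of its 5739 genes within this run, 24 of them protein-coding and 3 typed as pseudogenes, and every one of the 27 carried an msp symbol. The annotated genes of the run that were not listed were msp-63 and the pseudogene msp-37.

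MSP is the main cytoskeletal protein of nematode sperm. In place of actin, it assembles into filaments that push the crawling sperm forward, and MSP released from sperm acts as a hormone that triggers oocyte maturation and contraction of the gonadal sheath. The genes form a large family of short, nearly identical copies that are transcribed in spermatocytes, in hermaphrodites during the L4 stage, and they are not known as neuronal genes.

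The experiment comprised 6 libraries, 3 from worms carrying the deletion allele alg-2(ok304) and 3 from wild-type worms, all harvested as synchronized L4 animals grown at 20 degrees. ALG-2 is an Argonaute protein that binds miRNAs. By the study's text, both strains carried a single-copy transgene for FLAG-tagged RPL-18, a ribosomal protein, under the pan-neuronal promoter of rgef-1 and followed by a HIS-58::GFP marker, so that beads against FLAG should recover RNA on ribosomes of neurons from a lysate of whole animals. In its strain list, however, the tag is HA in the alg-2(ok304) strain but FLAG in the wild-type strain. The column headers of the mutant group name a knockout of alg-1, whereas labels and strain list name alg-2(ok304), which is the name used here.

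The 6 library columns did not hold read counts. Any pair of columns of a group kept 1 ratio over all genes, for example 1.17 between alg-2(ok304) libraries 2 and 1 and 1.40 between libraries 2 and 1 of wild type. Each column is therefore a group level multiplied by a factor of the library, as a fitted model gives, with no spread between replicates. These values are called fitted reads, and a sum is over 3 libraries. No error, interval or p-value can be given for them, and every comparison below is a description. Ribosomal RNA held 85.1% of the fitted reads in alg-2(ok304) and 97.9% in wild type. The other genes summed to 712356, 836019 and 1599179 fitted reads in alg-2(ok304) and to 244236, 341098 and 370703 in the wild-type libraries, which is 3.29 times as many over the mutant group. alg-2 itself had 11.1 fitted reads in alg-2(ok304) and 16.6 in wild type, and reads outside the deleted stretch also count for it, so that the labels were not checked by it. alg-1, the gene in the headers, was not among the genes listed. Of 25 neuronal marker genes, 9 were listed. All 9 were above 0 in alg-2(ok304), against 78.3% of all genes listed, and 5 in wild type, against 51.5% of all genes. rgef-1 was not among the genes listed.

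The msp genes had few fitted reads in both groups. Over all 27 genes they summed to 134 fitted reads in alg-2(ok304) and to 58.8 fitted reads in wild type. As a share of all genes other than ribosomal RNA, this was 42.5 CPM (counts scaled to 1000000) in alg-2(ok304) and 61.5 CPM in wild type. By library, the summed msp value was 30.3, 35.5 and 68.0 fitted reads in alg-2(ok304) while the wild-type libraries had 15, 21 and 22.8, an order within each group that only repeats the library factors. The 9 listed neuronal markers, other genes of other lengths, summed to 27.4 CPM in alg-2(ok304) and to 12.2 CPM in wild type. The median msp gene had 1.14 fitted reads in alg-2(ok304), against 8.37 for the median of all genes listed, and 0 in wild type, against 0.947 for the median of all genes. These reads are not per length, and msp genes are short.

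In alg-2(ok304), 17 of the 27 msp genes were above 0 (63%, against 78.3% of all genes listed). In wild type, 4 of the 27 were above 0 (14.8%, against 51.5% of all genes listed). Only msp-45, msp-40 and msp-31 were above 0 in both groups, or 11.1% of the msp genes against 46.3% of all genes. A further 14 msp genes (51.9%) were above 0 in alg-2(ok304) and listed at 0 in wild type, where the share over all genes was 31.9%. msp-50 was the only member in the opposite class, 3.7% against 5.14% of all genes. The remaining 9 msp genes (33.3%) were listed at 0 in both groups, against 16.6% of all genes. Of the 17 genes above 0 in alg-2(ok304), 8 had under 3 fitted reads over the whole group and 4 had at least 10. The larger number of msp genes above 0 in alg-2(ok304) goes together with the 3.29-fold larger total of these libraries outside ribosomal RNA. That gap in totals is wider without the genes within 2 kb of ribosomal RNA, and its part in the result was not tested. In such bulk samples, fewer cells of a type and less RNA per cell cannot be told apart.

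**Figure D1:**
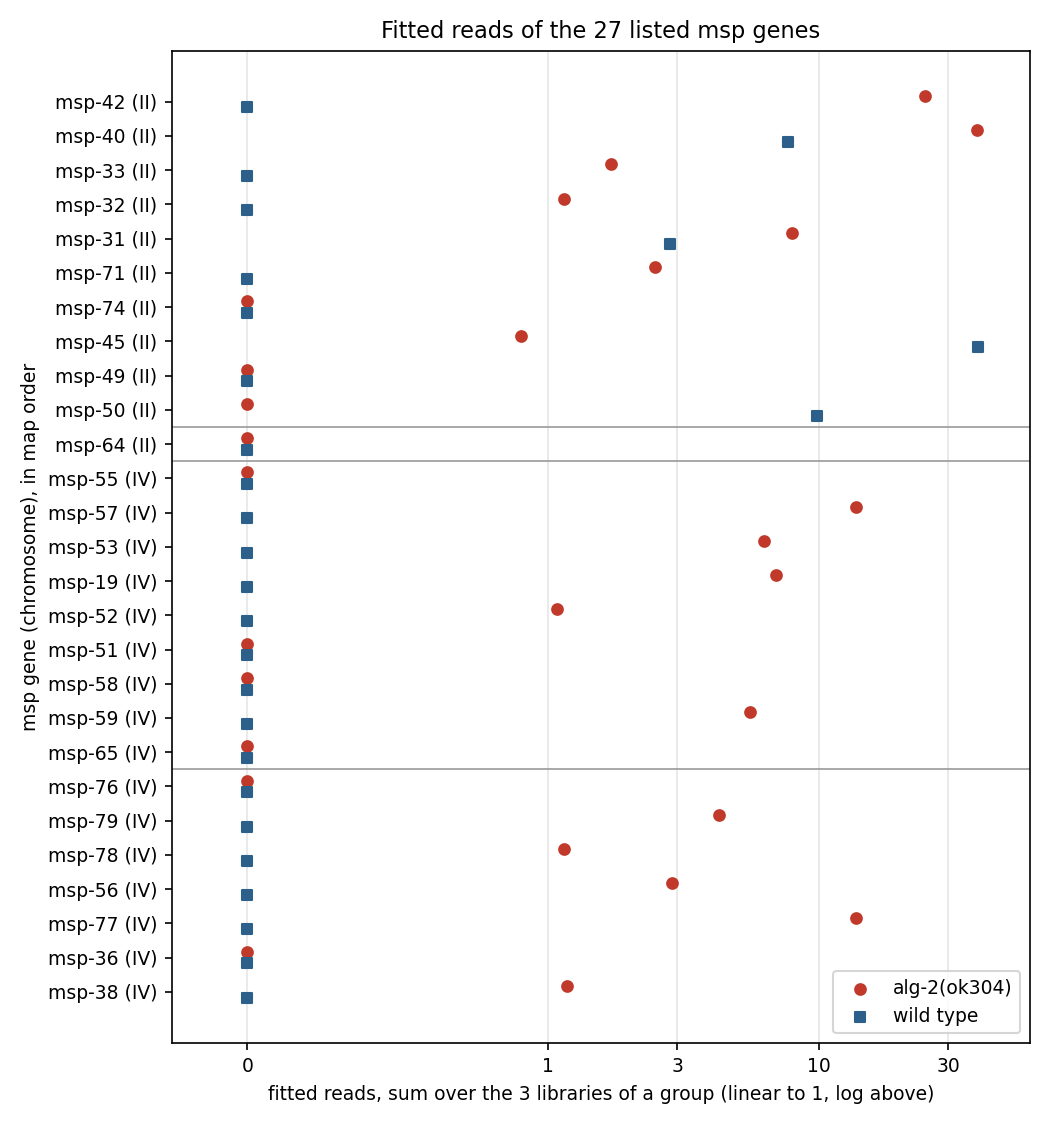
Fitted reads of each of the 27 listed msp genes (x axis, sum over the 3 libraries of a group, linear up to 1 and logarithmic above), in map order down the page, with lines between the groups of neighbouring genes. Circles are alg-2(ok304) and squares wild type. Most squares sit at 0, those of msp-40, msp-31, msp-45 and msp-50 do not, and all of these lie in the first group on chromosome II.

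**Figure D2:**
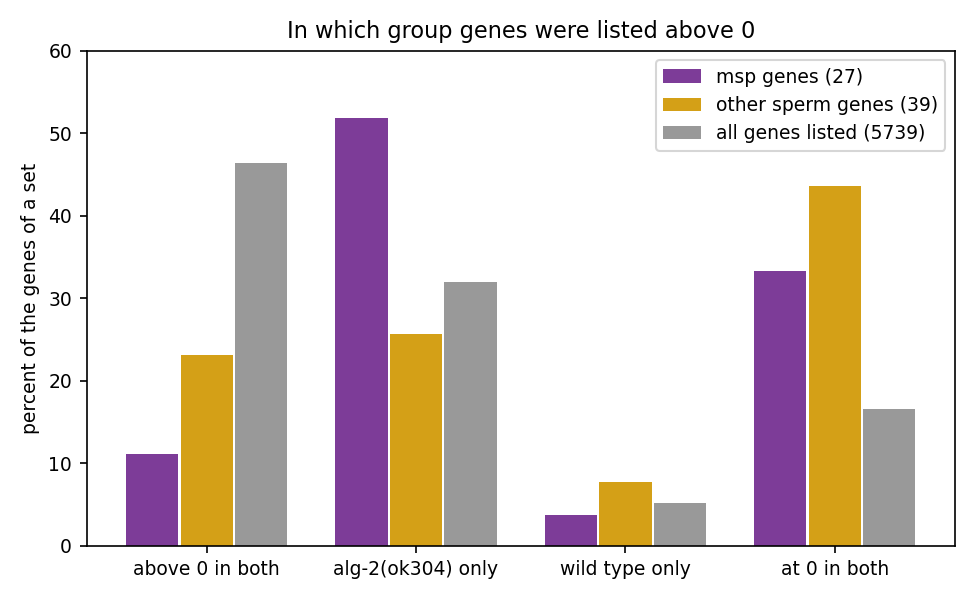
Percent of genes (y axis) that were above 0 in both groups, above 0 in alg-2(ok304) only, above 0 in wild type only, or at 0 in both, for the 27 msp genes, 39 listed identifiers of other sperm genes and all 5739 genes. The msp genes stand lowest above 0 in both groups (11.1%) and highest in alg-2(ok304) only (51.9%), and both sperm sets have larger shares at 0 in both groups than all genes do.

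Among the members above 0 in both groups, msp-40 had the most fitted reads of the family in alg-2(ok304). msp-40 (WBGene00003435), a copy of 384 bases on the plus strand of chromosome II (4825414 to 4825797 of WBcel235), was fitted at 8.69, 10.2 and 19.5 reads in alg-2(ok304) and at 1.97, 2.75 and 2.98 reads in wild type. The higher mutant values go together with higher totals outside ribosomal RNA. To set the groups on a common scale, the log2 ratio of alg-2(ok304) over wild type was read relative to its median over the 2653 genes other than ribosomal RNA that were above 0 in both groups, 1.93. On this scale the log2 ratio of msp-40 was 0.39, from sums of 38.4 fitted reads in alg-2(ok304) and 7.70 in wild type. With ribosomal RNA and the genes within 2 kb of it left out of the totals as the scale, it was -0.33, so that no direction is given for msp-40.

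msp-31 (WBGene00003429; chromosome II, 4916179 to 4916562, minus strand) was fitted at 1.80, 2.11 and 4.04 reads in alg-2(ok304) and at 0.719, 1.0 and 1.09 reads in wild type, and summed to 7.95 in alg-2(ok304) and to 2.82 in wild type. Its log2 ratio was -0.43 on the main scale and 0.047 when the median was taken over genes with at least 10 fitted reads in both groups, so that its direction too depends on the scale. msp-31 lies inside an intron of aagr-2, an alpha-glucosidase gene on the same strand, which had 50.4 fitted reads in alg-2(ok304) and 4.62 in wild type.

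msp-45 differed most between the groups among the 3 members above 0 in both. msp-45 (WBGene00003438; chromosome II, 5156700 to 5157083, minus strand) was fitted at 0.206, 0.241 and 0.462 reads in alg-2(ok304) and at 9.83, 13.7 and 14.9 reads in wild type. As the columns hold only a group level, the gap between the columns is no agreement between replicates. Summed, alg-2(ok304) had 0.909 fitted reads and wild type 38.5, a log2 ratio of -7.33, and the log2 ratio stayed between -8.05 and -4.29 under the other scales. With the pseudocount it was -5.72, since the value in alg-2(ok304) is the lowest above 0 in the family. msp-45 held 65.4% of all msp reads fitted in wild type.

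A second gene of the table had the values of msp-45. msp-45 lies whole within an intron of srb-13 (WBGene00019028; chromosome II, 5155436 to 5157625, minus strand), a member of a family of chemoreceptor genes, and shares no exonic base with it in the annotation used here. srb-13 was fitted at 0.206, 0.241 and 0.462 reads in alg-2(ok304) and at 9.83, 13.7 and 14.9 reads in wild type, the same as msp-45 to 3 digits. Of the 5738 other genes listed, srb-13 was the only one whose sums equalled those of msp-45 within 0.1% in both groups. The authors' average log2 CPM was also close, 0.14 for msp-45 and 0.15 for srb-13. gst-9, a glutathione S-transferase gene that holds msp-33 in an intron on the opposite strand, differed from msp-33 by 0.132% in alg-2(ok304), just outside that tolerance, with 1.71 fitted reads each there and 0 each in wild type. dhs-12, a dehydrogenase gene that holds msp-38 in an intron, was at 0 in alg-2(ok304) and at 0.950 fitted reads in wild type, whereas msp-38 had 1.18 fitted reads in alg-2(ok304) and 0 in wild type. Neither the type of feature counted (exon or whole gene), nor the strand, nor the treatment of reads that overlap several genes is given in the sources used here, the study's own scripts were not used here, and whether the same reads were counted for msp-45 and srb-13 was not tested.

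msp-50 (WBGene00003443; chromosome II, 5199797 to 5200180, plus strand) was listed at 0 in all 3 alg-2(ok304) libraries and at 2.51, 3.50 and 3.80 fitted reads in wild type. It overlaps no other annotated gene, and it was the only msp gene above 0 in wild type alone. msp-45 and msp-50 lie on either side of msp-49, which was listed at 0 in both groups.

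The 14 members above 0 only in alg-2(ok304) were led by a pseudogene. msp-42 (WBGene00003437; chromosome II, 4787159 to 4787520, plus strand) was fitted at 5.56, 6.52 and 12.5 reads in alg-2(ok304) and at 0 in the wild-type libraries. msp-57 (WBGene00003450), in the first group of genes on chromosome IV, had 3.10, 3.64 and 6.96 fitted reads in alg-2(ok304) and 0 in wild type. msp-77 (WBGene00003464), 4832 kb away on the same chromosome, had 3.10, 3.64 and 6.96 fitted reads in alg-2(ok304) and 0 in wild type as well. No other gene of the table equalled these sums within 0.1%. At low values such matches also occurred with unrelated genes, since 5 of the 18 members above 0 in any column equalled only distant genes outside the family in this way. MSP copies are known to be near-identical in sequence, and how reads that map to several copies were assigned is not given in the sources used here, so that the values of single copies are uncertain. msp-19, msp-53 and msp-59 followed with 6.95, 6.26 and 5.55 fitted reads in alg-2(ok304), and msp-79 had 4.26. The other 7 of the 14 had between 1.08 and 2.87 fitted reads, with msp-56 the highest and the pseudogene msp-52 the lowest.

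With a pseudocount of 0.5 fitted reads on the common scale, 15 msp genes had the higher level in alg-2(ok304) (55.6%, against 55% of all genes listed) and 3 the lower level (11.1%, against 28.3%). At 4-fold or more, 5 msp genes were higher (msp-42, msp-57, msp-77, msp-19 and msp-53; 18.5%, against 23.5% of all genes) and 2 were lower (msp-45 and msp-50; 7.41%, against 10.5% of all genes). The 5 were all listed at 0 in wild type, and msp-50 in alg-2(ok304), so that their ratios depend on the pseudocount. msp-53 was just inside this limit with a log2 ratio of 2.10 and msp-59 just outside it with 1.97, both on the scale with the pseudocount. The median log2 ratio on that scale was 0.65 over the 27 msp genes and 0.44 over all genes listed. With a pseudocount of 0.1 the number of members 4-fold or more higher was 12 (44.4%, against 34% of all genes), and with a pseudocount of 1 it was 3 (11.1%, against 14.7%). Among the 11 members with at least 3 fitted reads over the 6 columns it was 5 (45.5%, against 33.2% of all genes so kept). Whether the share of msp genes was above or below that of the table thus depended on the pseudocount and on the filter.

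The sum over the family had the opposite direction to most of its members. The log2 ratio of the summed msp level was -0.74 on the common scale, lower in alg-2(ok304). Without msp-45, an alternative chosen after the values were seen, the remaining 26 members summed to 133 fitted reads in alg-2(ok304) and to 20.3 in wild type, and the log2 ratio was 0.78. Scaled by the totals of all genes, it was 2.30. A direction for the family as a whole therefore rested on 1 gene and on the scale.

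The members were read by position next, since msp genes lie in a few clusters. All 27 have a single exon and 21 are 384 bases long, on the plus strand in 15 cases and on the minus strand in 12. A group of 10 genes on chromosome II, spanning 413 kb (4787159 to 5200180), held 77.1 fitted reads in alg-2(ok304) and all 58.8 fitted msp reads of wild type. A single gene farther right on chromosome II, msp-64, was at 0 in both groups. On chromosome IV, a left group of 9 genes over 261 kb held 33.5 fitted reads in alg-2(ok304) and 0 in wild type, and a right group of 7 genes over 455 kb held 23.1 in alg-2(ok304) and 0 in wild type. All 16 listed members on chromosome IV were thus at 0 in the wild-type libraries, where 51.5% of all genes listed were above 0. The mutant libraries had 10 of these 16 above 0, against 63% of the 27 msp genes and 78.3% of all genes listed. All 4 members above 0 in wild type came from the left group on chromosome II, msp-45 among them. As these 4 are only 14.8% of the family, a difference by position rests on few genes, and it was not tested.

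**Figure D3:**
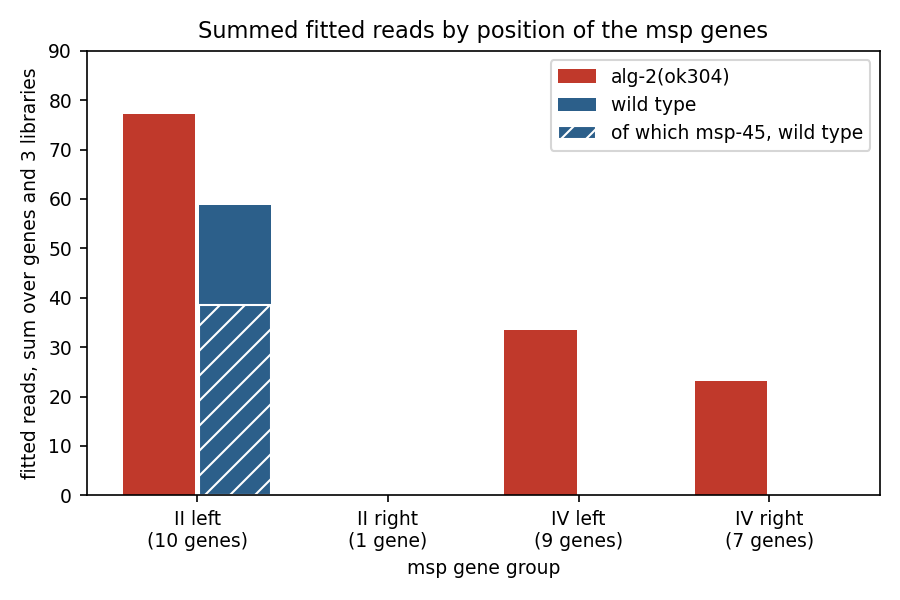
Fitted reads summed over the listed msp genes of each positional group and over 3 libraries (y axis), with alg-2(ok304) left of wild type. The hatched part is msp-45. The left group on chromosome II reaches 77.1 in alg-2(ok304) and 58.8 in wild type, and the wild-type bars of both groups on chromosome IV are at 0.

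The deposited table also gives an average log2 CPM for each gene, which is not per length either. The median of the msp genes was -0.21, against -1.90 for the 5712 other genes listed, and 13 of the 27 were above 0 (48.1%, against 12.5% of all genes). The highest members were msp-59 at 2.19, msp-53 at 2.02, msp-19 at 1.81, msp-57 at 1.73 and msp-40 at 1.72. This order was not that of the fitted reads. msp-42, second by fitted reads in alg-2(ok304), was number 22 by average log2 CPM at -0.71, and msp-59, number 8 by fitted reads, was the first. msp-57 and msp-77, with equal fitted reads, had 1.73 and -0.54.

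The same held for members listed at 0. The 9 msp genes at 0 in all 6 columns had an average log2 CPM between -3.57 and 1.30 with a median of -0.29, against a median of -2.35 for the 944 other genes at 0 in all columns. Among all 953 such genes, 6 of the 9 msp genes were within the highest 95. msp-51 was number 5 with 1.30, msp-55 number 10 with 0.79 and msp-65 number 18 with 0.31. Above 0 only in alg-2(ok304), the 14 msp genes had a median of -0.27, against -2.40 for the 1447 other genes of that class within the same range of fitted reads. At 5 to 7 fitted reads, a window chosen after the values were seen, msp-59, msp-53 and msp-19 had 2.19, 2.02 and 1.81, and the highest of 145 other genes had 0.86. msp-81, an msp gene with an identifier outside the run, also fell in this window. It had 6.87 fitted reads in alg-2(ok304) and an average of -0.19. For the msp genes of the run the average therefore does not follow from the 6 library columns alone. The average of the 944 other genes at 0 in all columns ranged from -3.96 to 1.77, so that the mismatch was not limited to msp genes. Although the table was kept at 1 CPM in at least 2 samples, only msp-40 and msp-42 reached 1 CPM of the column total in at least 2 columns (7.41%, against 29.7% of all genes). Whether the authors' average and filter took in further libraries is not given in the sources used here and was not tested.

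**Figure D4:**
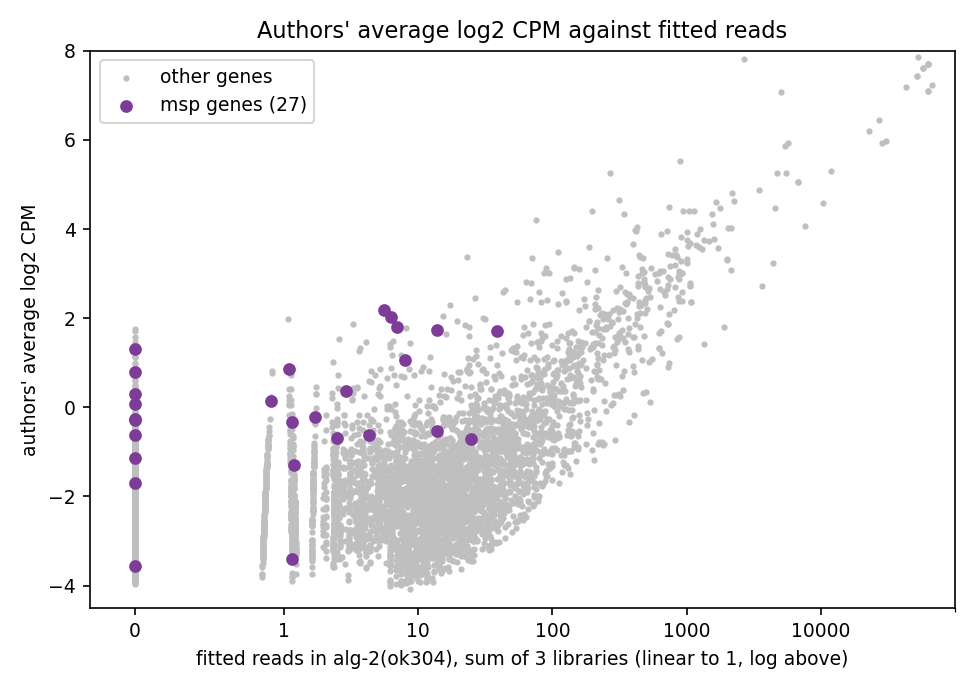
The authors' average log2 CPM (y axis) against fitted reads in alg-2(ok304) (x axis, sum of 3 libraries, linear up to 1 and logarithmic above), 1 point per gene, with 14 of the 5739 genes beyond the axes. Most msp genes lie in the upper part of the cloud at their number of fitted reads, including msp-51 (1.30) among the genes at 0.

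The 6 listed msp genes with identifiers outside the run were msp-3, msp-10, msp-81, msp-113, msp-142 and msp-152. msp-81 had 6.87 fitted reads in alg-2(ok304) and 0 in wild type, and the other 5 were at 0 in both groups. msp-113, at 0 in all columns, had an average log2 CPM of 1.59, and the median of the 6 was -0.07. With these 6 genes added, an alternative chosen after the values were seen, the log2 ratio of the summed level was -0.67.

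Other genes with a role in sperm or in sperm activation were read from a list of 64 symbols, of which 37 were listed under 39 identifiers. The list was drawn by role, and the cells that express each gene were not examined here. Of these 39, 9 were above 0 in both groups (23.1%, against 46.3% of all genes) and 10 in alg-2(ok304) only (25.6%, against 31.9%). The 3 above 0 in wild type only were nspd-2, peel-1 and ssp-9 (7.69%, against 5.14%), and 17 were at 0 in both groups (43.6%, against 16.6%). With the pseudocount, 14 were higher in alg-2(ok304) (35.9%, against 55% of all genes) and 8 lower (20.5%, against 28.3%). At 4-fold or more, 3 were higher (7.69%, against 23.5%) and 2 lower (5.13%, against 10.5%). spe-44, which encodes a transcription factor of the sperm programme on which msp genes depend, was listed at 0 in both groups. gsp-3 and gsp-4 encode sperm phosphatases that act on MSP filament dynamics. gsp-3 had 2.52 fitted reads in alg-2(ok304) and 0.969 in wild type, a log2 ratio of -0.55, and gsp-4 had 2.27 in alg-2(ok304) and was at 0 in wild type. spe-6, a kinase gene needed for the packing of MSP in spermatocytes, had 14 fitted reads in alg-2(ok304) and 0.948 in wild type, a log2 ratio of 1.96. fer-1, a gene for a membrane fusion protein of sperm, had 7.75 in alg-2(ok304) and was at 0 in wild type. smz-1, a sperm PDZ protein gene, had 3.24 in alg-2(ok304) and was likewise at 0 in wild type. The most fitted reads of the list in both groups were at swm-1, which encodes a secreted protease inhibitor that restrains sperm activation. It had 42.8 fitted reads in alg-2(ok304) and 16.2 in wild type, a log2 ratio of -0.53. The median average log2 CPM of the 39 was -1.55, against -0.21 for the msp genes.

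On the receiving side of MSP, 9 of a list of 27 signalling genes were found in the table, 6 above 0 in both groups (66.7%, against 46.3% of all genes) and 3 in alg-2(ok304) only (33.3%, against 31.9%). The Eph receptor gene vab-1, whose product binds MSP on oocytes and sheath cells and also acts in neurons, had the most fitted reads of them in wild type. It had 33.2 fitted reads in alg-2(ok304) and 41.1 in wild type, a log2 ratio of -2.24. gsa-1, the G protein alpha gene that acts in the sheath and in neurons, had 78.6 fitted reads in alg-2(ok304) and 17 in wild type, a log2 ratio of 0.28. kin-2, the regulatory subunit of protein kinase A, had 2.37 in alg-2(ok304) and 7.42 in wild type, a log2 ratio of -3.57. At 4-fold or more with the pseudocount, 3 of the 9 were higher (33.3%, against 23.5% of all genes) and 2 lower (22.2%, against 10.5%) in alg-2(ok304).

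Markers of the germline and other tissues were listed as well. Of 15 germline and oocyte markers, 8 were listed. Of these 8, 5 were above 0 in alg-2(ok304), against 78.3% of all genes, and 6 in wild type, against 51.5% of all genes. They summed to 10.7 CPM in alg-2(ok304) and to 16.6 CPM in wild type. The RNA helicase gene glh-1, the P granule gene pgl-1 and the Notch receptor gene glp-1 were above 0 in both groups. nos-3, cpg-1 and cpg-2 were at 0 in alg-2(ok304), and oma-1 and glh-4 were at 0 in wild type. None of 5 markers of the gonadal sheath and spermatheca was among the genes listed. All 15 body wall muscle markers were listed, with sums of 2129 CPM in alg-2(ok304) and 4006 CPM in wild type. Most of this was 1 gene, ttn-1. It held 5067 of their 6701 fitted reads in alg-2(ok304) and 2925 of 3830 in wild type. The median average log2 CPM, -0.21 in msp genes, was 1.11 in these muscle markers, 1.10 in the listed hypodermal markers and 0.16 in the listed intestinal markers. It was lower than in msp genes in the listed neuronal markers (-1.85) and in the listed germline and oocyte markers (-2.22). In msp genes and in other genes at 0 in all columns, this average does not follow from the library columns alone. No order of tissues is therefore read from it. The 12 of 15 intestinal markers listed summed to 278 CPM in alg-2(ok304) and 279.96 CPM in wild type, and the 12 of 15 hypodermal markers listed to 505 CPM in alg-2(ok304) and 678 CPM in wild type. No input library was analysed here, and how much of the msp level came from germ cells through the immunoprecipitation was not tested.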

How the data were processed

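Polysomes were immunoprecipitated from 6 samples of L4 worms, and libraries were prepared from low amounts of RNA. Per the labels, the tools included cutadapt 2.10, HISAT2 2.2.0, featureCounts of Subread 2.0.0 and edgeR 3.11, with assembly WBcel235. The authors counted reads on genes of Ensembl release 96. They deposited 1 table of 5739 genes, with an average log2 CPM per gene and 1 column of fitted reads per library. The deposited p-values and FDR belong to the authors' own comparison and were not used. The number of sample columns left unused was 0.

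The planned count test was not run, since fitted values hold no spread, and the precision of a value cannot be stated. Sums, shares and log2 ratios were computed with Python 3.11.15, numpy 2.4.6 and pandas 2.3.3. The scaling step was tested on simulated counts with a known scale. It was run for the main scale without a minimum and for the median over genes with at least 10 reads. A limit for passing was set only for the latter, and the outcome for the main scale is not given here. The simulated counts also differ from the fitted values used here, so that the check does not bear out the main scale. Genes were called at 4-fold with a pseudocount of 0.5. Positions and types came from Ensembl release 115, symbols from its gene names, and the symbols of 3 listed pseudogenes from RefSeq entries of WBcel235 with the same coordinates. Identifiers of 5733 genes matched. The alternatives were other scales, pseudocounts, folds and filters. Members, lists and the rule for named genes (every listed member, and the genes with the highest sums of each list) were chosen with earlier results of these data known. Other list genes were named for their roles or their fold calls after their values were seen. Some symbols are given to several identifiers by the gene names. Sequences were not analysed here.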

Additional observations from a re-analysis of the deposited data

How the results depend on the processing

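The numbers of msp genes higher and lower in alg-2(ok304), 15 and 3, moved to between 14 and 16 and between 2 and 4 under the 4 other scales. They were 12 and 3 without pseudogenes. A pseudocount cannot change a direction, so that 15 and 3 under the other pseudocounts were fixed in advance. On any scale the 14 members above 0 in alg-2(ok304) only are higher and msp-50 is lower. Only msp-40, msp-31 and msp-45 could thus move. With at least 3 fitted reads over the 6 columns, 11 members were kept, and 8 of these were higher. At 4-fold or more, 5 of these 11 were higher (45.5%, against 33.2% of all genes kept). The 5 genes 4-fold or more higher (18.5%, against 23.5% of all genes) became 16 by the totals of all genes (59.3%, against 63.1%), 3 by the totals without ribosomal RNA and genes within 2 kb (11.1%, against 16%), 12 with a pseudocount of 0.1 (44.4%, against 34%) and 3 with a pseudocount of 1 (11.1%, against 14.7%). At 2-fold there were 9 (33.3%, against 38.4%) and at 8-fold 3 (11.1%, against 10.8%). The number of genes 4-fold or more lower was 2 under every alternative run. This was 7.41% of the 27, against 4.98% to 13.1% of all genes under the other scales and pseudocounts. With the filter of at least 3 fitted reads it was 18.2% of the 11 members kept, against 13.4% of all genes kept.

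The log2 ratio of the summed msp level, -0.74, was -0.26 with the median over genes of at least 10 fitted reads, -0.53 by the totals without ribosomal RNA, -1.46 by those without ribosomal RNA and genes within 2 kb, and -1.08 without pseudogenes. It turned to 2.30 by the totals of all genes and to 0.78 without msp-45. msp-40 turned to -0.33 by the totals without ribosomal RNA and genes within 2 kb. msp-31 turned to 0.047 with the median over genes of at least 10 fitted reads and to 2.61 by the totals of all genes. The cause was not tested beyond the construction of each scale. No paired analysis was possible because the columns hold fitted values that do not vary between replicates, and for the same reason leaving out single replicates was not run. The depth of sequencing is unknown, so that a gene at 0 is only listed at 0.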
